A study of Mus musculus with 3 samples.

Results

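TR9 and TR1 are leukemias that arose independently, each in 1 primary mouse, after lin- bone marrow (BM) cells of C57BL/6 mice had been transduced with a retrovirus carrying the human TBLR1-RARα fusion (TR) and GFP. The comparison set the gene expression of the TR9 leukemia directly against that of the TR1 leukemia, over every gene listed in either library. These were 15706 of the 16742 genes in the series, with a gene missing from a file taken as 0. Each library was made from the pooled BM cells of 3 mice aged 6 to 8 weeks. For TR1 and TR9 these were sorted GFP+ cells of leukemic recipients in the third generation of serial transplantation. Lin- BM cells pooled from 3 wild-type mice, which carried neither the virus nor GFP, gave the control library, used here only as a reference level. Both leukemias share the fusion, the vector, the strain and the sort, and differ in the founding mouse. There was 1 library for each leukemia, so the differences have no replicate check, and a call compares the reads of the libraries and not the leukemias. Serial passage, pooling and the origin of each leukemia in a single mouse limit what either library stands for.

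TR belongs to the RARα fusions of acute promyelocytic leukemia (APL). In this disease the retinoic acid receptor, bound to corepressors, holds granulocyte precursors near the promyelocyte stage. Normal granulocytes make their granule proteins in order: primary granule enzymes such as myeloperoxidase come first, the secondary and tertiary granule proteins follow, and receptors and cytosolic proteins of the mature neutrophil come last. The relative levels of these groups therefore place a cell along that path.

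Read totals were close, at 5571409 expected counts in TR1, 5129662 in TR9 and 5488778 in control. The 100 most abundant genes took 23.1% of the counts in TR1 and 19.5% in TR9. Calls needed a false discovery rate no higher than 0.001 in the conditional exact Poisson test of rounded counts, and a log2 FPKM ratio of 1 or more in either direction. FPKM corrects read numbers for the length of a transcript and the size of a library, and values under 0.01 were set to 0.01. All log2 ratios are TR9 over TR1 unless another pair is named, and the intervals beside them are 95% exact intervals that cover counting error only. By this rule 681 genes (4.34%) were higher and 363 genes (2.31%) were lower in TR9 (6.65% either way). Scaling by TMM turned these into 551 and 445. Most of the transcriptome was shared, since 9832 of the 11561 genes that reached an FPKM of 1 in either library (85.0%) lay within 1 log2 unit. Among genes that reached an FPKM of 10, 3.83% were called higher and 2.99% lower. The median of all log2 ratios was 0.13. Scaling by TMM lowered every log2 ratio by 0.13 and TPM raised it by 0.12, so gene lists are given beside this median. Counts over a list are to be read beside the 4.34% of all genes called higher and the 2.31% called lower. In bulk libraries fewer cells of a type and less RNA per cell cannot be told apart.

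**Figure D1:**
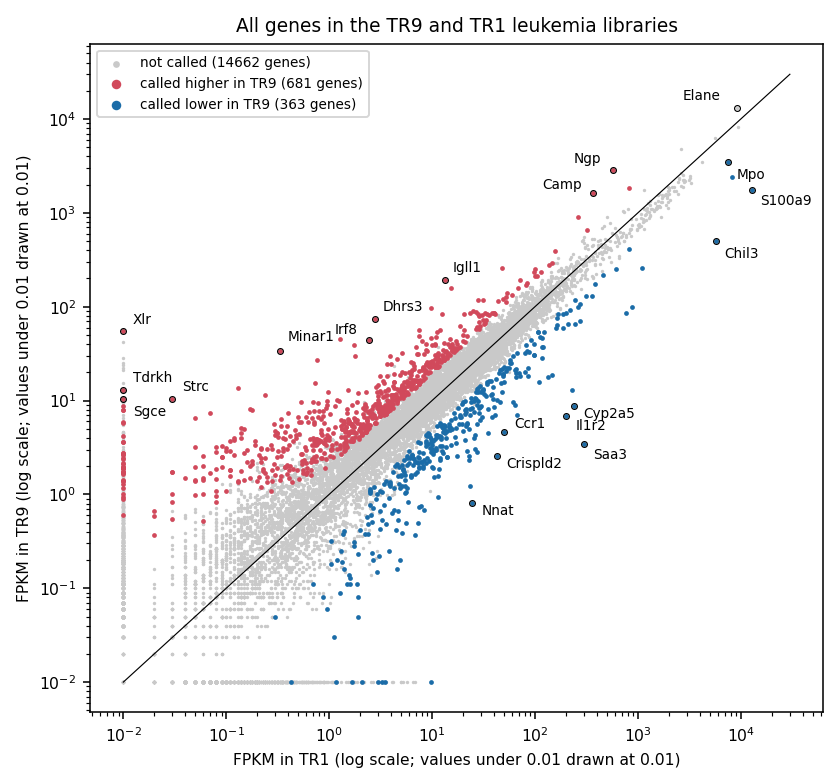
FPKM of every gene in TR1 (x axis) and in TR9 (y axis), both on log scales, with 1 pooled library on each axis and equal levels on the diagonal. The 681 genes called higher in TR9 are red, the 363 called lower are blue, and Saa3, Il1r2, Cyp2a5 and Chil3 lie among those far below the diagonal.

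Both directions were then read against control. Of the 363 genes lower in TR9, 238 (65.6%) were higher in TR1 than in control, where 8.09% of all genes were called higher. Of those 363, 87 (23.97%) were lower in TR9 than in control, against 10.8% of all genes. The 681 genes higher in TR9 held 267 (39.2%) that were lower in TR1 than in control, where 13% of all genes were called lower, and 322 (47.3%) that were higher in TR9 than in control, against 9.37% of all genes. The comparisons share libraries, so these counts describe levels and are not independent of each other. In words, a gene lower in TR9 was most often one that stood above control in TR1. A gene higher in TR9 mostly stood below control in TR1 or above control in TR9, though 107 of the 681 were called in neither comparison.

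Late neutrophil genes had the lowest median of the gene lists read. Of 25 listed members 8 were called lower and 1 higher (Stfa1, 0 counts in TR1 and 17.5 in TR9), with a list median of -1.12 beside 0.13 for all genes. S100a9 (NCBI Gene 20202), a calcium-binding protein that fills the neutrophil cytosol, had an FPKM of 27.0, 12864 and 1773 in control, TR1 and TR9, a log2 ratio of -2.86 (-2.91 to -2.81). Its partner S100a8 had an FPKM of 36.3, 8188 and 2414 in control, TR1 and TR9. Both were thus far above control in each leukemia and several-fold lower in TR9. Il1r2, the decoy receptor of interleukin-1, had an FPKM of 0.27, 201 and 6.80 in control, TR1 and TR9 (log2 ratio -4.89, interval -5.34 to -4.47). The chemokine receptor Cxcr2 went from 28.7 in TR1 to 8.33 in TR9, and Retnlg, a resistin-like secreted protein, from 41.1 to 7.01. For both, TR9 lay at or below the control level of 11.4 and 7.18. The C-type lectin receptors Clec4e (log2 ratio -2.60) and Clec4d (-1.35) and the membrane protein Ifitm1 (-1.12) complete the called members. Csf3r, the receptor of granulocyte colony-stimulating factor, was not called, with an FPKM of 175 in TR1 and 96.9 in TR9, and neither was Slpi, a protease inhibitor, with 153 and 290.

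Secondary and tertiary granule genes split. Among 25 listed members 7 were lower, 3 were higher and 15 were not called, with a median of -0.57. Chil3 (NCBI Gene 12655), a chitinase-like secreted protein, had an FPKM of 5.39, 5780 and 504 in control, TR1 and TR9. That is 11.5-fold lower in TR9 (log2 ratio -3.52, interval -3.57 to -3.47). Anxa1, the phospholipid-binding annexin stored in gelatinase granules, had 760 in TR1 and 85.6 in TR9, next to 84.3 in control. Lcn2, the iron-siderophore-binding lipocalin, had 1087 and 260, and the collagenase Mmp8 had 43.1 and 10.2. Itgam, which encodes CD11b, had 34.9 in TR1 and 8.21 in TR9, so that TR9 was near the 6.59 of control. Cybb, the catalytic subunit of the NADPH oxidase, had 65.6 and 17.9, and Adam8, a membrane protease, had 8.22 and 2.75.

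The 3 granule genes that were higher in TR9 included the most abundant cathelicidin-type proteins. Ngp, neutrophilic granule protein, had an FPKM of 11.3, 571 and 2833 in control, TR1 and TR9 (log2 ratio 2.31, interval 2.26 to 2.36). Camp, the cathelicidin antimicrobial peptide, had 2.87, 364 and 1647 in control, TR1 and TR9 (log2 ratio 2.18, interval 2.08 to 2.27). Orm1, an acute-phase glycoprotein, had 32.7 in TR1 and 85.6 in TR9. Cd177, a neutrophil surface protein, was not called and was nearly level, with an FPKM of 105 in TR1 and 103 in TR9. Hp, haptoglobin, had 986 and 665 and was not called, at a log2 ratio of -0.57 like the list's median. Within this joint list of secondary and tertiary granule genes, then, 3 genes were higher in TR9 and 7 were lower.

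Primary granule genes did not move as a group. Mpo, myeloperoxidase, had an FPKM of 2255, 7585 and 3514 in control, TR1 and TR9 and was called lower (log2 ratio -1.11, interval -1.13 to -1.10), though not under TPM scaling (-0.99). Ms4a3, a membrane protein of granulocyte progenitors, was also called lower, at 825 in TR1 and 411 in TR9, and lost the call under TPM scaling (-0.89). The serine proteases lay in the other direction and were not called. Elane, neutrophil elastase, had 866, 9103 and 13178 in control, TR1 and TR9. Prtn3, proteinase 3, had 1160 in TR1 and 1749 in TR9, and Ctsg, cathepsin G, had 2605 and 4847 (log2 ratio 0.90, which passed under TPM scaling at 1.01). The list's median relative to all genes was 0.43 and came to -0.03 over genes with at least 10 counts, so it has no firm direction.

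**Figure D2:**
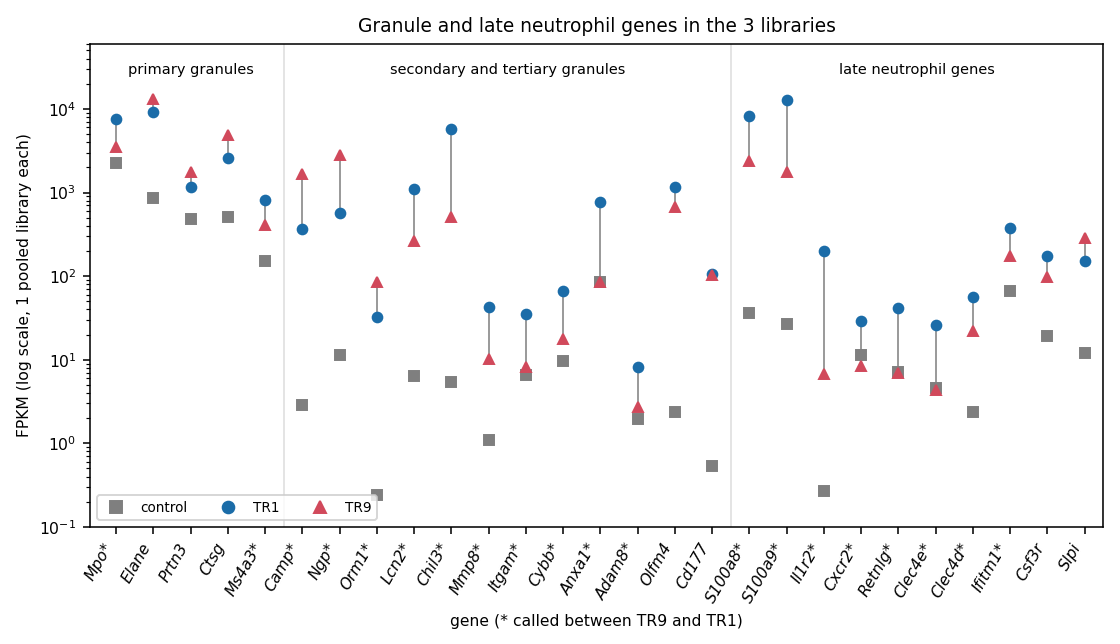
FPKM on a log scale of 27 granule and late neutrophil genes in the control (grey squares), TR1 (blue circles) and TR9 (red triangles) libraries, 1 pooled library each. Grey lines join TR1 and TR9. The genes are a selection from their lists, and Stfa1, the late neutrophil gene called higher, is not drawn. Of those drawn, late neutrophil genes other than Slpi and most secondary and tertiary granule genes sit lower in TR9. Camp, Ngp and Orm1 sit higher.

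Genes of other myeloid lines were compared next. Of 23 listed monocyte and macrophage genes 5 were lower (21.7%) and 2 higher (8.7%) in TR9. Fn1, fibronectin, had an FPKM of 97.5 in TR1 and 30.7 in TR9, Cd68, a lysosomal glycoprotein, had 159 and 58.7, and Adgre1, which encodes F4/80, had 11.96 and 4.24. Cd14, the lipopolysaccharide coreceptor, had 8.80 and 3.54, and Gpnmb, a transmembrane glycoprotein, had 7.21 and 1.73. Members that were not called ranged widely in level. C1qa had 17.8, 0.67 and 0.37 in control, TR1 and TR9, and Csf1r had 23.8, 6.47 and 4.04. Well above control in both leukemias were Ly6c2 (500, 5593 and 6296), Vcam1 (25.1, 164 and 291) and F13a1 (98.8, 543 and 301). The list's summed FPKM was 1084, 6753 and 7256 in control, TR1 and TR9, with Ly6c2 its most abundant member. Irf8 and Psap were the higher members. Irf8 (NCBI Gene 15900) is the transcription factor that directs progenitors toward monocytes and away from granulocytes. It had 1059, 39 and 644 expected counts in control, TR1 and TR9, an FPKM of 68.0, 2.46 and 44.2 and a log2 ratio of 4.17 (3.70 to 4.67). TR1 thus held little Irf8 RNA while TR9 was not called different from control. Psap, prosaposin, a precursor of lysosomal activator proteins, had an FPKM of 174, 68.9 and 157 in control, TR1 and TR9.

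Transcription factors of the granulocyte and monocyte lines tended to be higher in TR9. Of 32 genes 8 were called higher and 2 lower, and the median was 0.57. Spi1, which encodes PU.1, had an FPKM of 59.98, 99.5 and 250 in control, TR1 and TR9 (log2 ratio 1.33, interval 1.20 to 1.45). Ets1, another ETS factor, had 15.6 in TR1 and 39.6 in TR9, and Zeb2, a zinc finger repressor, had 15.1 and 37.1. Egr1, an immediate early factor of monocyte differentiation, had 40.2 and 86.1, but its call was lost under TMM, median of ratios and upper quartile scaling (lowest log2 ratio 0.97). Nfe2 (84.1 and 179), Runx1 (18.6 and 37.7) and Trib1, a pseudokinase that targets C/EBPα for degradation (6.49 and 16.0), were called higher as well. Nfe2 (0.96) and Runx1 (0.89) also lost the call under TMM scaling, which left 5 of the 32 genes higher and 3 lower. The lower members were Id2, an inhibitor of helix-loop-helix factors, with 46.7 in TR1 and 15.4 in TR9, and Runx3 with 16.7 and 6.58. Factors that define the granulocyte line were not called. Cebpa had an FPKM of 82.6 in TR1 and 142 in TR9, Cebpe had 70.6 and 91.0, and Gfi1 had 133 and 185.

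Surface markers of progenitors moved in different directions. Kit, the receptor of stem cell factor, had an FPKM of 73.5, 29.1 and 62.6 in control, TR1 and TR9 (log2 ratio 1.10, interval 0.98 to 1.22). This call was lost under TMM (0.97) and median of ratios scaling (0.98). Ly6a, which encodes Sca-1, had 9.49, 26.9 and 87.6 in control, TR1 and TR9. Its counts were not whole numbers, as where reads are divided among near-identical genes such as the Ly6 family, so its value is uncertain. Flt3, the receptor of FLT3 ligand, lay the other way with 16.2, 38.4 and 6.65 in control, TR1 and TR9, above control in one leukemia and below it in the other. Cd34 was low in both, with 1039, 83 and 57 expected counts in control, TR1 and TR9. In all, 4 of 18 listed stem and progenitor genes were higher (Kit, Ly6a, Lmo2 and Hlf) and 2 were lower (Flt3 and Cd48). Under TMM scaling Kit and Lmo2 (0.91) lost the call, which left 2 higher and 2 lower.

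Markers of other marrow cells were checked over their whole lists. None of 17 erythroid and none of 17 megakaryocyte genes was called, and their summed FPKM was 47.0 in TR1 and 46.7 in TR9 for the erythroid list (3356 in control) and 21.8 and 27.0 for the megakaryocyte list (969 in control). The B cell list summed to 20.4 in TR1 and 207 in TR9, of which Igll1, the surrogate light chain gene, made 13.3 and 195. Of the 10 listed members Igll1 alone was called, and 10 others were at 0 in both libraries. The T and NK cell list summed to 404 and 254, with Thy1 (168 and 82.8), Lat and Tcf7 called lower, of which Thy1 lost the call under TPM scaling (-0.90), and Cd3e at 0 in TR1 and 0.14 in TR9. The marrow stroma list summed to 136 and 370, of which Pecam1, an adhesion molecule of endothelium and of myeloid cells, made 47.5 and 256. Of its 16 listed members 4 were higher and 1 was lower. The higher were Pecam1, Pdgfrb (8.94 and 33.9), Kitl (0.42 and 4.17) and Col1a2 (0.90 and 5.81). The lower was Lepr, the leptin receptor and a marker of marrow stroma, with 3.29 in TR1 and 1.07 in TR9. Col1a1, the main bone collagen, had 2.68 and 1.27 and was not called. The part of such cells in the differences was not tested. Of 15 mast cell, basophil and eosinophil genes Hdc, histidine decarboxylase, and Siglecf were lower, and of 8 dendritic cell genes Flt3 was lower and Tcf4 higher.

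Retinoid genes are of interest because RARα is a partner in the fusion. Rara itself (NCBI Gene 19401) had 58.9, 1168 and 359 expected counts in control, TR1 and TR9, an FPKM of 3.36, 66.1 and 21.96. It was called lower in TR9 (log2 ratio -1.59, interval -1.76 to -1.41). The virus carries the human RARA sequence, and whether its reads were counted on Rara was not tested. Tbl1xr1, the mouse counterpart of the other fusion partner, had an FPKM of 18.9, 25.8 and 23.2 in control, TR1 and TR9 and was not called. Rarg, a second retinoic acid receptor, was higher in TR9, at 6.33, 6.18 and 20.2 in control, TR1 and TR9 (log2 ratio 1.71, interval 1.37 to 2.08).

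Enzymes that handle retinoids were called in both directions. Dhrs3, which reduces retinaldehyde back to retinol, had 185, 21 and 615 expected counts in control, TR1 and TR9, a 26.6-fold higher FPKM in TR9 (log2 ratio 4.73, interval 4.37 to 5.69 from the counts). Cyp26a1, the oxidase that degrades retinoic acid, had 2, 3 and 39 counts in control, TR1 and TR9 (log2 ratio 3.83, interval 2.17 to 6.16). Aldh1a1, which makes retinoic acid from retinaldehyde, had an FPKM of 46.0, 0.18 and 2.29 in control, TR1 and TR9 (log2 ratio 3.67, interval 1.69 to 6.83). It was far below control in both leukemias. Dhrs9, another retinol dehydrogenase, was lower in TR9, with 1, 93 and 12 counts in control, TR1 and TR9, and Rdh12 had 23, 219 and 69. Of 19 listed genes of the group 4 were higher, 3 were lower and 12 were not called.

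Cyp26a1 and Rarb are textbook targets of retinoic acid, and both carry in their promoter a DR5 element, a pair of AGGTCA-like hexamers in the same direction spaced by 5 bases. DR5 was searched on both strands of the promoter windows in RefSeq's GRCm38.p6 table, with each hexamer read as AGGTCA or AGTTCA or GGGTCA or GGTTCA. It was found in 31 of 27025 windows (0.115%), in 6 of the 12289 tested genes with a window, in 2 of 536 called higher and in none of 272 called lower. The called pair were Cyp26a1 and Blvrb, biliverdin reductase B (1074, 39 and 136 counts in control, TR1 and TR9). The other 4 were Rarb, Tnfsf13b, Ppbp and Cfap45. The 200 bases before the gene start are given here for Cyp26a1 and Rarb, with the element in capitals, because the genes share the element and differ in readout.
Cyp26a1 promoter, chr19:37697608-37697807, plus strand: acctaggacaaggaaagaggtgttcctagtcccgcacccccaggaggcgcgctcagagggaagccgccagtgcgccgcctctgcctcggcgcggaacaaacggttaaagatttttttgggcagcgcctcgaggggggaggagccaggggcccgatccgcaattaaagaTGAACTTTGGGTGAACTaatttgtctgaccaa
Rarb promoter, chr14:16575477-16575676, minus strand: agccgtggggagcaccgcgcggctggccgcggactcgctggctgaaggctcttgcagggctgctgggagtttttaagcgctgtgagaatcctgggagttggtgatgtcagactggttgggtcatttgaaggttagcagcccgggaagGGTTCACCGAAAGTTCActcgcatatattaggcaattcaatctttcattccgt
Rarb, the retinoic acid receptor β gene, had 2, 48 and 30 counts in control, TR1 and TR9 (log2 ratio -0.55, interval -1.27 to 0.13) and was not called. Of these genes with a shared element, Cyp26a1 was called higher in TR9 and Rarb had a lower value that was not called.

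Corepressors and chromatin regulators were mostly level. Of 35 corepressor genes 2 were higher, the class IIa deacetylases Hdac7 (FPKM 7.35 in TR1 and 16.2 in TR9) and Hdac9 (21 counts in TR1 and 102 in TR9), and none was lower. The 5.71% of the list called higher was near the 4.34% of all genes. Chd4, the helicase of the NuRD complex and the most abundant member, had a log2 ratio of 0.40. Of 37 genes of DNA methylation and Polycomb 3 were higher and 1 lower. Dnmt3l, the cofactor of de novo methylation, had 0, 14 and 54 counts in control, TR1 and TR9, and the Polycomb subunit Pcgf2 had 50, 0 and 26, so that it was at least 9.41-fold higher in TR9 when TR1 is set to 3 counts. Cbx6, a reader of Polycomb marks, was the lower member (log2 ratio -1.49).

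A set of genes was close to silent in one leukemia and plainly expressed in the other. With at most 3 counts in one library and at least 50 in the other, 29 genes were on in TR9 and 1 (Gm18853, 79.5 counts in TR1 and 0 in TR9) was on in TR1. The imbalance stayed at other minimums, with 94 against 25 genes at 20 counts and 58 against 15 at 30 counts. The 29 lay on 15 chromosomes and had 52 to 310 counts in TR9. Control held at least 50 counts for 8 of them, at most 3 for 9, and between these for 12, so they were not a set that control shared with either leukemia as a whole. These genes were picked by their difference, which is a description.

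The members with the most reads show the kinds of genes involved. Strc, which encodes stereocilin of the inner ear, had 2, 1 and 310 counts in control, TR1 and TR9 (log2 ratio 8.43, interval 5.91 to 13.70). Xlr, an X-linked lymphocyte-regulated gene, had 10.4, 0 and 284 and was at least 103-fold higher in TR9. Umodl1, a uromodulin-like protein, had 0, 2 and 193. Tdrkh, a Tudor protein of the piRNA pathway, had 50, 0 and 180, at least 65.2-fold higher in TR9. Clmp, an adhesion molecule, had 5, 3 and 120, and the pseudogene Tdg-ps2 had 188, 0 and 118. Mdfic had 64, 1 and 117, Cstdc5 of the stefin family had 0, 3 and 98.5, and Sgce, ε-sarcoglycan, had 29, 0 and 92. Of these genes Tdrkh, Sgce, Mdfic and Tdg-ps2 were expressed in control and nearly absent in TR1, while Strc, Umodl1 and Cstdc5 were nearly absent in both control and TR1. Counts of Xlr, Tdg-ps2 and Cstdc5 were not whole, so that reads shared with related copies make their values uncertain.

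**Figure D3:**
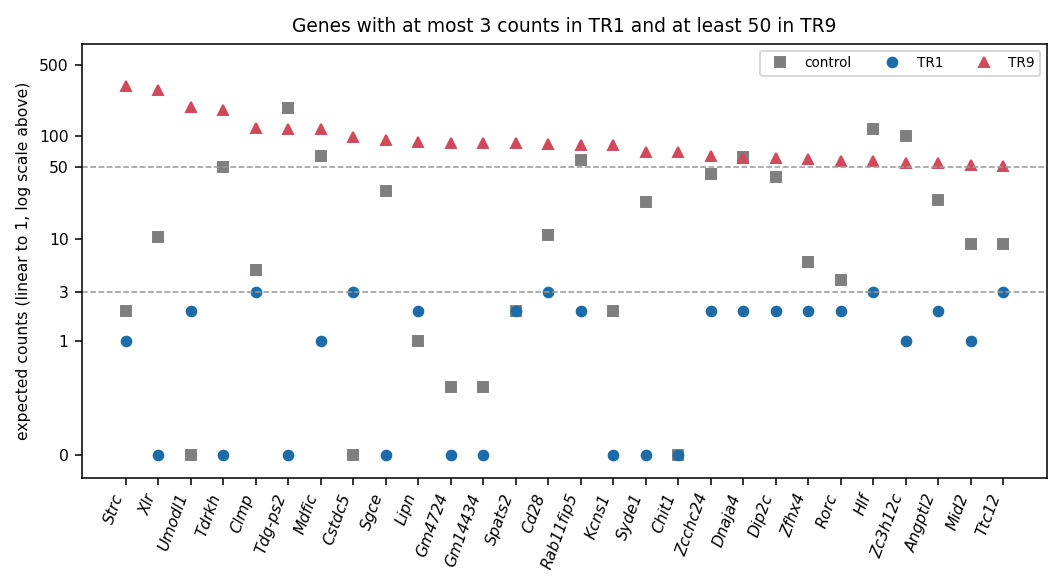
Expected counts of 28 of the 29 genes with at most 3 counts in TR1 and at least 50 in TR9 (dashed lines), in the control, TR1 and TR9 libraries, on an axis that is linear up to 1 and logarithmic above. Control counts (grey squares) range from 0 to 188 and fall near TR1 for some genes and near TR9 for others.

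Genes of the germline and imprinted genes were read next. Of the 29 genes above, Tdrkh is the listed germline gene and Sgce the listed imprinted gene, and the counts that follow include them. Of 21 listed germline genes Tdrkh, Brdt and Mov10 were higher and none was lower. Brdt, the testis-specific bromodomain protein, had an FPKM of 0.31, 8.06 and 43.4 in control, TR1 and TR9. The meiotic cohesin subunit Stag3 was well above its control level of 2.13 in both leukemias, at 47.5 in TR1 and 69.3 in TR9, and was not called. Among 33 imprinted genes 4 were higher (12.1%) and 3 lower (9.09%). Plagl1, a zinc finger factor of the imprinted gene network, had 7, 4 and 370 counts in control, TR1 and TR9 (log2 ratio 6.70, interval 5.28 to 8.53), and Sgce is given above. Nnat, neuronatin, lay the other way with 5, 162 and 5 counts (log2 ratio -4.91, interval -6.54 to -3.65), as did the cell cycle inhibitor Cdkn1c (3, 55 and 12) and the adaptor Grb10 (348, 371 and 113). Peg10, the neighbor of Sgce, had a low FPKM of 0.29 in TR1 and 0.90 in TR9, the same direction as Sgce, and was not called. The other higher members were Ppp1r9a (FPKM 2.0 in TR1 and 5.12 in TR9) and Zrsr1 (3.95 and 9.97).

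The largest differences at an FPKM of at least 10 took in genes of varied function. Saa3, an acute-phase serum amyloid, had 0, 838 and 9 counts in control, TR1 and TR9 (log2 ratio -6.42, interval -7.56 to -5.49). Cyp2a5, a cytochrome P450 of liver and nasal tissue, had 2, 2313 and 78 counts (log2 ratio -4.77), and Crispld2, a secreted lipopolysaccharide-binding protein, had 0, 998 and 55. The chemokine receptor Ccr1 had an FPKM of 4.55, 50.3 and 4.59 in control, TR1 and TR9. Gpc3, a glypican, had 23, 843 and 81 counts. Rn7sk, the RNA polymerase III transcript that holds the elongation factor P-TEFb, had 104, 1482 and 152 counts. These genes share a pattern, high in TR1 and low in both control and TR9, although Cyp2a5, Crispld2 and Gpc3 were still above control in TR9. Rn7sk is only 332 bases long, and classes of small RNA had medians away from the 0.13 of all genes. These were -1.46 for 14 snRNA genes (1 called lower) and 1.12 for 54 snoRNA genes (0 called).

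In the other direction Minar1 had 0, 8 and 739 counts in control, TR1 and TR9 (log2 ratio 6.67, interval 5.66 to 7.87). Lhfp had 37, 9 and 292, Cited4, a partner of the coactivator CBP, had 166, 12 and 248, and Tie1, a receptor tyrosine kinase of endothelium and early blood cells, had 115, 16 and 311. Fkbp6, an immunophilin of male meiosis, had 1.03, 13.8 and 212. Lhfp and Tie1 belonged to 19 genes called in opposite directions against control, of which 15 were above control in TR9 and below it in TR1, and 4 (Flt3, Gpr65, Sla and Lpcat2) the reverse.

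Many receptors by which myeloid cells sense their surroundings were lower in TR9. Of 47 Fc receptors, C-type lectins and related genes 14 were lower (29.8%) and 3 higher (6.38%), with a median of -0.88. Tyrobp, the DAP12 signaling adaptor, had an FPKM of 68.8, 271 and 70 in control, TR1 and TR9, and Clec12a had 83.3, 360 and 130. The inhibitory receptors Cd33 (85.6 in TR1 and 18.5 in TR9), Pirb (35.2 and 4.46) and Siglece (27.5 and 2.85) were lower as well. Fcgr3, a marker of granulocyte and monocyte progenitors, had 64.5, 184 and 118 in control, TR1 and TR9 and was not called. Clec7a, the β-glucan receptor dectin-1, was higher in TR9, with 13.5 in TR1 and 33.5 in TR9, as were Clec2d and Fcgrt.

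Among 53 growth factor and cytokine receptors 9 were lower (17.0%) and 4 higher (7.55%). Csf2rb, the shared β chain of the GM-CSF, IL-3 and IL-5 receptors, had an FPKM of 23.9, 117 and 37.2 in control, TR1 and TR9, and its mouse paralog Csf2rb2 had 6.01, 5.61 and 1.07. Il4ra (18.1 in TR1 and 5.69 in TR9) and Il13ra1 (21.1 and 7.14), which pair in the type II IL-4 receptor, were both lower. Il10rb (lost under TPM scaling at -0.92), Il15ra and Il18rap were the other lower members beside Il1r2 and Flt3. Kit, Tgfbr2, Tnfrsf1b (28.8 and 80.1) and Pdgfrb were higher. Of 33 genes of JAK and STAT signaling Cish, a feedback inhibitor of cytokine receptors, was higher with 11, 6 and 74 counts in control, TR1 and TR9, whereas Ptprc, which encodes CD45, was lower with an FPKM of 80.6 in TR1 and 20.02 in TR9, and Stat4 was lower too. Of 29 chemoattractant receptors Ccr1 and Cxcr2 were lower, and Cxcr4, the receptor that holds cells in marrow, and Cmklr1 were higher (6.9% each way). Cxcr4 lost its call under TMM scaling (0.94).

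Adhesion molecules divided evenly, with 6 of 39 higher and 6 lower (15.4% each), beside 4.34% and 2.31% of all genes. Pecam1 had an FPKM of 41.4, 47.5 and 256 in control, TR1 and TR9, and Alcam, an activated leukocyte adhesion molecule, had 2.32, 4.56 and 27.5. Itga1 and Itgb5 were also higher. Icam1, the ligand of leukocyte integrins, had 51, 27 and 3 counts in control, TR1 and TR9 (log2 ratio -3.05, interval -5.42 to -1.35), and Itga4 had an FPKM of 84.9, 57.4 and 25.2.

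Interferon-stimulated genes lay toward TR9 by number and median, but their summed FPKM was lower there (2925 in TR1 and 2434 in TR9). Ifitm2, the most abundant member, had an FPKM of 859 in TR1 and 565 in TR9 and was not called. Of 70 listed genes 17 were higher (24.3%) and 4 lower (5.71%), 52 lay above the median of all genes, and the list median was 0.69. The number higher was 13 under TMM scaling and 25 under TPM scaling, with 4 lower in both. Irf7, the factor that amplifies type I interferon, had an FPKM of 9.87, 8.66 and 24.3 in control, TR1 and TR9. The interferon-inducible GTPases Gbp6, Tgtp2, Irgm1 and Irgm2 were higher as well: Gbp6 had 0.48, 0.53 and 5.84 in control, TR1 and TR9, Tgtp2 had 19.5, 4.27 and 15.8, Irgm1 had 22.6, 11.9 and 26.3, and Irgm2 had 5.31, 4.44 and 11.8. Zbp1, a sensor of Z-form nucleic acids, had 1.68, 7.10 and 18.2, and Oasl2 had 3.76, 16.5 and 36.5. Tgtp2 was called below control in TR1 and not in TR9, whereas for Zbp1 and Oasl2 both leukemias were above control. The 4 lower members were Ifitm6 (FPKM 231 in TR1 and 12.9 in TR9), Slfn1, Ifi27l2a and Ifitm1. Isg15, a ubiquitin-like modifier and one of the best known members, had 6.18 in TR1 and 11.4 in TR9 and was not called.

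Many of these genes carry in their promoter the core of the interferon-stimulated response element, read here as GAAA and, after 2 bases of any kind, GAAA again. With either strand searched in the same RefSeq windows it was found in 3.99% of all genes with a window. Among interferon-stimulated genes with a window it was found in 32 of 54 (59.3%). It stood in 8 of 12 called higher (66.7%) and in 24 of 39 not called (61.5%), so its share was similar in both. None of the 3 called lower with a window held it. The bases before the gene start of 3 called members are shown with the matches in capitals. Of these Ifit1 lost the call under TMM scaling (0.95). On the opposite strand a match reads TTTC in place of GAAA.
Ifit1 promoter, chr19:34640689-34640888, plus strand: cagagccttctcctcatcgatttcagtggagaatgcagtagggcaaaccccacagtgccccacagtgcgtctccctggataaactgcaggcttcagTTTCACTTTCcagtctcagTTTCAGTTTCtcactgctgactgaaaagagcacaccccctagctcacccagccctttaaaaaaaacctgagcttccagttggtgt
Irgm1 promoter, chr11:48871421-48871620, minus strand: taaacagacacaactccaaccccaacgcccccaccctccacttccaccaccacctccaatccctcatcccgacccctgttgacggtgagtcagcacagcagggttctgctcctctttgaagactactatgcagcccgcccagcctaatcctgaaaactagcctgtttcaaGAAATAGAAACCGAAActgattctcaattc
Gbp5 promoter, chr3:142496734-142496933, plus strand: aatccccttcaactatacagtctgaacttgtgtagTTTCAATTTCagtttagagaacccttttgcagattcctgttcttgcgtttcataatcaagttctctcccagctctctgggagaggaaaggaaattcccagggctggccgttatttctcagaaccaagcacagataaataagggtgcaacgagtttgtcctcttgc
Ifit1, an RNA-binding effector, had an FPKM of 3.71 in TR1 and 7.85 in TR9, and Gbp5, a guanylate-binding protein, had 6.48 and 16.5. Ifit1 holds 2 separate matches, Irgm1 2 that overlap and Gbp5 1, and their log2 ratios were 1.08, 1.14 and 1.35.

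Antigen presentation genes of class I lay the same way. Of 27 genes 5 were higher and 1 lower, and 23 lay above the median of all genes. H2-K1 and H2-D1, the classical class I genes of this strain, had FPKM of 447 and 539 in TR1 and 697 and 771 in TR9 and were not called, and B2m lay the other way at 3239 and 2337. The called members were H2-Q4, H2-Q5, H2-Q6, H2-Q8 and Mr1 (lost under TMM scaling), and H2-Q10 was the lower member. The H2-Q genes are near-identical and their counts were not whole, so single members are uncertain. Of 19 class II genes only Ifi30, a lysosomal thiol reductase, was called. Pattern recognition receptors divided, with 6 of 40 lower and 5 higher. The lower were membrane receptors, Tlr1, Tlr2 (FPKM 4.65 in TR1 and 0.54 in TR9), Tlr6, Tlr7 and Cd14, and the DNA sensor Aim2. The higher were the RNA helicases Ifih1 and Dhx58, their adaptor Mavs (0.99 and 4.12), Nod1 and Irak2. Ifih1 lost the call under TMM scaling (0.91) and Tlr6 under TPM scaling (-0.93).

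**Figure D4:**
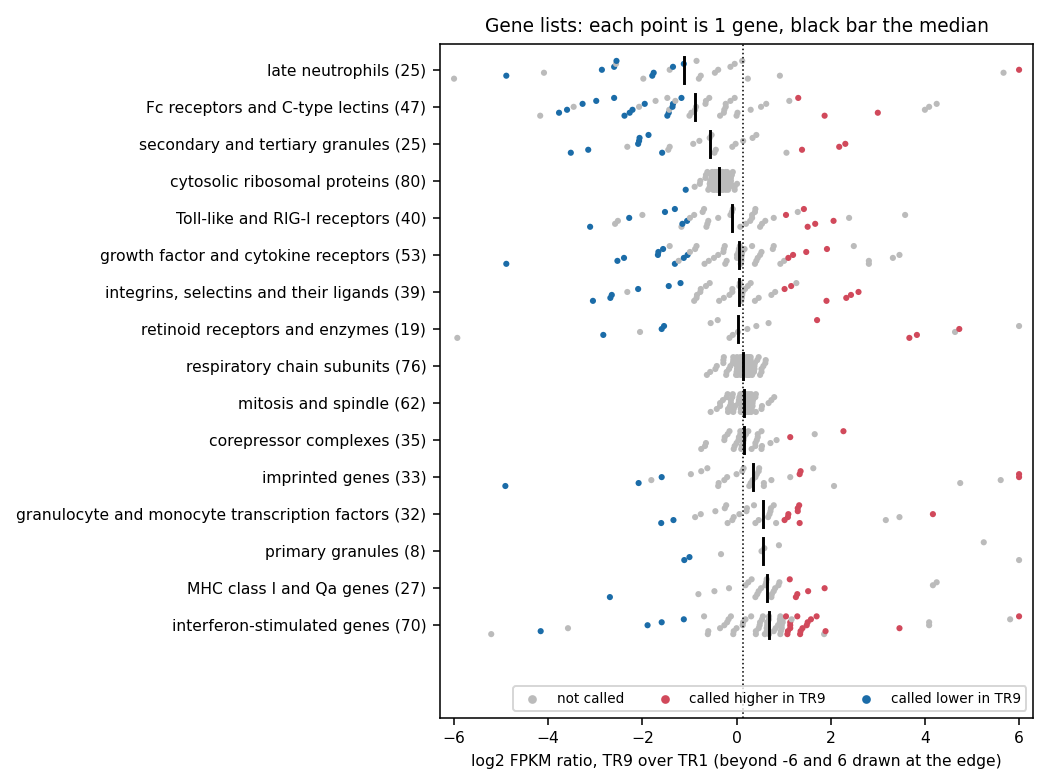
Log2 FPKM ratio of TR9 over TR1 for each gene of 16 lists, with the number of listed genes in brackets, the list's median as a black bar and the median of all genes (0.13) as a dotted line. Late neutrophil genes (median -1.12) and Fc receptors and C-type lectins (-0.88) stand to the left, class I (0.64) and interferon-stimulated genes (0.69) to the right.

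Housekeeping groups differed little. None of 62 mitotic genes and none of 76 respiratory chain subunits was called, with medians of 0.16 and 0.14. Of 72 replication genes Tk1, thymidine kinase, and the inhibitor Cdkn1a were higher and Cdkn1c was lower. The cytosolic ribosomal proteins were set off as a group by a small amount: 80 of 80 lay below the median of all genes, the list median was -0.37, and Rpl37 alone was called (-1.08, lost under TPM scaling at -0.97). Their summed FPKM was 79317, 120093 and 93631 in control, TR1 and TR9. The median relative to all genes was -0.50, which a change of scaling cannot move, and it was -0.45 with a pseudocount of 1 FPKM. These transcripts are short, and other genes as short had a median of 0.03 (2057 genes).

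Further lists varied in their share of calls, beside 4.34% of all genes called higher and 2.31% called lower. The share called higher was 20.8% for retroviral insertion genes and 28.6% for the Ly6 family, but 2.7% for the proteasome and 3.03% for the MYC network. The Ly6 members Ly6i, Ly6f and 9030619P08Rik had counts that were not whole, as did Ly6a, so single members and their number are uncertain. Though few were called, 29 of the 33 MYC network genes lay below the median of all genes. Their median was -0.27, or -0.40 relative to all genes (-0.41 to -0.35 under the alternatives). In the p53 and BCL2 group (50 genes) Bcl2 and Cdkn1a were higher and the proapoptotic Pmaip1 and Perp were lower. Of 48 immediate early genes Fosb (4.23 and 19.07 FPKM), Egr1 and Klf2 were higher. In NF-κB signaling (32 genes) Bcl3 (79 counts in TR1 and 7 in TR9) and the inhibitor Nfkbia (1057 and 304) were lower and Traf1 was higher. Of 33 genes of the oxidative burst Cybb, Mpo, Gpx3 and Nos2 were lower and Srxn1, Cat and Gpx4 were higher. Of these Gpx3 and Gpx4, both glutathione peroxidases, lay in opposite directions. Under TMM scaling Cat and Gpx4 lost the call, which left 1 higher and 6 lower. Among 31 coagulation and fibrinolysis genes Plau, urokinase, Pros1 and Serpinb6a were higher, and F10 and the protease inhibitor Serpine2 were lower. Of 48 genes known as retroviral insertion sites 10 were higher (6 under TMM scaling) and 3 lower, most of them named above. Myc, one of them, had an FPKM ratio of -0.15 on the log2 scale. Lists of the MYC network (1 of 33 called), glycolysis (2 of 26), ER chaperones (2 of 32), the proteasome (1 of 37), lysosomal enzymes (5 of 28), extracellular ATP (6 of 35), cytokines (5 of 33), HoxA, Meis and Pbx genes (2 of 13) and the Ly6 family (4 of 14, all higher) complete the set.

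Called genes were also read in their order along the chromosomes, taken from RefSeq's GRCm38.p6 table for names and neighbors only. Runs of at least 3 neighbors called the same way numbered 7, and the longest held 4 genes on chromosome 2. It comprised the nucleoside transporters Slc28a2 (3215 counts in TR1 and 378 in TR9) and Slc28a2b (495 and 23.6), Bambi-ps1 between them (88.2 and 30.3) and Gatm, the first enzyme of creatine synthesis (937 and 219). The transporters are near copies with counts that were not whole. Other runs were H2-Q4 to H2-Q6, Mllt6, Cisd3 and Pcgf2 on chromosome 11, and St6galnac6, Ak1 and Eng on chromosome 2.

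Most of chromosome 15 stood apart from the other chromosomes. Its 454 genes that reached an FPKM of 1 had a median log2 ratio of -0.11, and 57.9% of them lay below 0. The medians of the other 19 chromosomes were 0.08 to 0.21. The 5 equal blocks of gene order on chromosome 15 had medians of -0.20, -0.17, -0.38, -0.14 and 0.21. The blocks of the other chromosomes had 0.02 to 0.26. The low blocks ran from Selenop to Vdr, and the last block, from Tmem106c to Pde1b, was within the range of the others. Medians against control were taken only over genes that also reached an FPKM of 1 in control, which leaves out genes near absent there. Against control, all 5 blocks of chromosome 15 were above 0 in TR1 (0.16 to 0.28), where the blocks of other chromosomes had -0.98 to 0.04. In TR9 they had -0.03, 0.08, -0.04, 0.07 and 0.40, where the others had -0.95 to 0.17. The last block was therefore above the others in both leukemias, and the 4 before it were above the others in TR1. The difference is small for each gene and was as large among well expressed genes, since at an FPKM of 5 or more the medians were -0.15 on chromosome 15 and 0.12 elsewhere. The chromosome, the blocks and this limit were chosen after their values had been seen, and no test was made. Single genes of the chromosome were called in both directions, 7.05% of them higher and 5.07% lower, beside 5.79% and 3.1% of all genes that reached an FPKM of 1. The lower included Csf2rb, Sla (FPKM 110 in TR1 and 15.9 in TR9) and Tspo, the mitochondrial translocator protein (201 and 86.5). Nfe2, Rarg and Ly6i, whose counts were not whole, were among the higher.

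**Figure D5:**
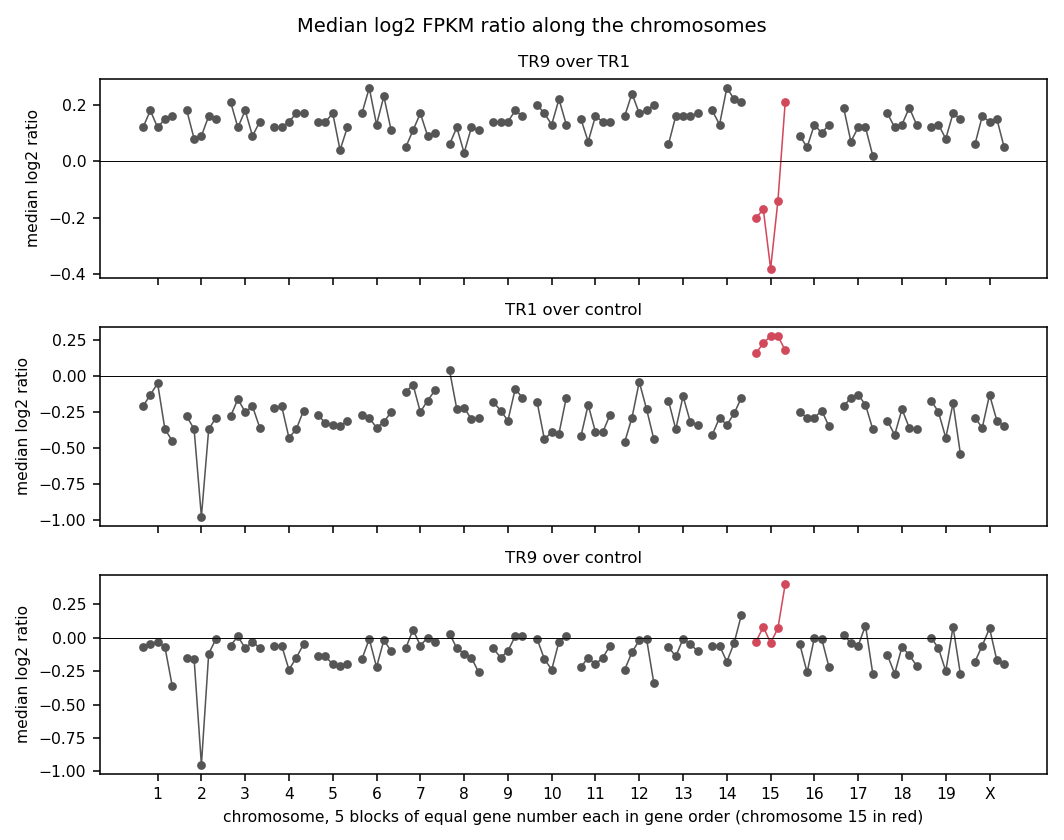
Median log2 ratio of genes that reached an FPKM of 1 in either leukemia, in 5 blocks of equal gene number per chromosome in gene order, for TR9 over TR1 (top), TR1 over control (middle) and TR9 over control (bottom). The middle and bottom panels use only those genes that also reached an FPKM of 1 in control. In the top panel 4 blocks of chromosome 15 (red) fall between -0.38 and -0.14, below every other block, and in the middle panel all 5 lie above every other block.

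Sex-linked genes were read as a check of the pools. The Y-linked genes Ddx3y (438, 2 and 3.05 counts in control, TR1 and TR9), Eif2s3y (477, 1 and 2) and Kdm5d (241, 1 and 1) were near 0 in both leukemias and present in control. Xist had an FPKM of 0.38, 0.54 and 2.26 in control, TR1 and TR9 and was called higher (log2 ratio 2.07, interval 1.62 to 2.51). Kdm6a, an X-linked demethylase with a Y counterpart, was lower in TR9, with 11.1, 8.72 and 2.14 in control, TR1 and TR9, whereas Ddx3x (log2 ratio 0.10), Eif2s3x (-0.06), Kdm5c (-0.05) and Usp9x (-0.02) were nearly level.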

How the data were processed

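RNA-seq of 3 libraries was analysed, 1 per condition, each made from BM cells pooled from 3 mice and sequenced by the authors. Sample labels gave the condition of each. According to the submitters' processing notes and the paper's methods, reads were mapped with BWA and Bowtie to mm9 and quantified with RSEM. Versions and the annotation are not given in the sources used here. The authors deposited for each gene an expected count, an RSEM estimate that can be a fraction of a read, and FPKM, which the authors scaled for gene length and library total. The totals were 5488778, 5571409 and 5129662 for control, TR1 and TR9, and 3 counts, the upper limit that a count of 0 allows, were 0.547, 0.538 and 0.585 ppm of them. Gene IDs of 16698 of 16742 genes were matched to names in RefSeq's tables (GRCm38.p6). As this build is not that of the files, no gene coordinates are given other than those of the RefSeq promoter sequences.

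Expected counts were rounded and tested per gene by a conditional exact Poisson test, 2-sided, with library totals as exposure and Benjamini-Hochberg adjustment over 15706 genes (Python 3.11.15, scipy 1.17.1). The thresholds were an adjusted value of 0.001 and a log2 FPKM ratio of 1 in size, after the methods of the paper. Intervals are exact (Clopper-Pearson) from the counts. With 0 counts in a library the fold is a lower bound against 3 counts in that library, and with 1 to 3 counts the ratio is given with its interval. In simulated data with 200 of 15706 genes changed by 2 on the log2 scale, with no spread between mice, the Poisson test recovered 94.5% and called 0 unchanged genes. On the same data edgeR's exact test with an assumed variation of 0.2 recovered 5.5%. The Poisson test holds no spread between mice, and the simulated counts were drawn from the same model that it assumes. Its recovery there cannot show how it performs on the pooled libraries. Alternatives used edgeR 4.0.16 and the size factors of DESeq2 1.42.0. Named genes were the 15 highest and lowest called genes with an FPKM of at least 10, the 10 with the most counts of those on in one library alone, 3 called genes in each direction and the most abundant gene of each list, the 10 furthest apart of those called in opposite directions against control, the genes of runs of at least 4, the 10 most abundant genes, and the fusion partners, surface markers and sex-linked genes. Some genes that this rule names are not reported here. Other genes in the text were picked with their values in view. The members and lists were chosen with earlier results of these data known, so counts over lists are descriptions beside the share of all genes.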

Additional observations from a re-analysis of the deposited data

Results flagged for a closer look

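Among genes called against control in both leukemias, 19 were called in opposite directions, and the 10 furthest apart are given here. Each leukemia had 1 library, so the difference between the leukemias was not tested over mice. Tdrkh (log2 ratio of TR9 over TR1 10.36), Sgce (10.04) and Syde1 (8.71) had 0 counts in TR1, so these values depend on the floor of 0.01 FPKM and TR9 was at least 65.2-fold, 33.3-fold and 25.7-fold higher. Against control their log2 ratios in TR9 were 1.94, 1.76 and 1.72. Angptl2 (4.95, interval 2.98 to 7.98) had 2 counts in TR1 and 55 in TR9. The remaining 6 had at least 6 counts in each library. Lhfp had a log2 ratio of 5.13, Dhrs3 of 4.73, Tie1 of 4.41, Myo6, an unconventional myosin, of 4.21, Igfbp7, a secreted binding protein of insulin-like growth factors, of 3.67 and Inppl1, which encodes the lipid phosphatase SHIP2, of 3.64. In TR1 these 6 lay below control by log2 ratios of -2.06 (Lhfp), -2.95 (Dhrs3), -2.88 (Tie1), -2.61 (Myo6), -2.40 (Igfbp7) and -2.10 (Inppl1). In TR9 they lay above it by 3.08, 1.78, 1.53, 1.60, 1.27 and 1.53 in the same order.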

How the results depend on the processing

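The number of calls rests on how much spread between mice is assumed. When edgeR's exact test was given a coefficient of variation of 0.2 between animals, 188 genes were higher and 94 lower, and with 0.4 these were 13 and 2. Of 182 named genes that were called, 85 kept the call at 0.2 and 12 at 0.4, namely Xlr, Tdrkh, Sgce, Strc, Plagl1, Umodl1, Mdfic, Tdg-ps2, Minar1, Dhrs3, Saa3 and Il1r2. A log2 ratio of at least 2 left 283 higher and 135 lower. The scaling moved the split: the share of calls that were lower was 34.8% with the deposited FPKM, 44.7% with TMM (551 higher and 445 lower) and 27.3% with TPM (850 and 319). TMM scaling ended the call of 10 named genes, median of ratios of 9, upper quartile of 8, TPM of 6 and a pseudocount of 1 FPKM of 8. The other alternatives (floor, filters on low values, Audic-Claverie test, false discovery rate of 0.05) ended no call of a named gene that they tested, and no called gene changed sign under any of them. List medians relative to all genes are not moved by scaling. Another filter, floor or pseudocount changed their sign for primary granules, stem cell, megakaryocyte, stroma, sex-linked, immediate early and p53 genes.

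No paired analysis was possible because each condition had 1 pooled library. Leaving out a library was not an option for the same reason. Depth limits genes with few reads: a count of 0 allows up to 3.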

Other observations

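One stretch of genes set both leukemias apart from control while barely differing between them. The middle of the 5 gene-order blocks of chromosome 2, from Rtn4rl2 to Dtwd1, had a median log2 ratio to control of -0.98 in TR1 and -0.95 in TR9, the lowest of all blocks in each, and of 0.09 between TR9 and TR1. The TR1 and TR9 values share the control library. They cover the 162 of the block's 182 genes that also reached an FPKM of 1 in control. Spi1, whose level was 59.98, 99.5 and 250 FPKM in control, TR1 and TR9, lies within it by gene order and was called above control in TR9. The block was picked after its values had been seen.

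Among 605 Reactome sets with 15 to 200 members at an FPKM of at least 1, the lowest median log2 ratio of TR9 over TR1 was that of collagen degradation (-0.89, 21 genes, 5 lower and 3 higher), followed by translation sets made mostly of ribosomal proteins (-0.36). The highest medians were those of endosomal and vacuolar antigen handling (0.47, 15 genes), peroxisomal lipid metabolism (0.47, 21 genes), nuclear receptor transcription (0.46, 28 genes), glutathione conjugation (0.43, 18 genes) and mitochondrial fatty acid β-oxidation (0.42, 15 genes). These ends of the ranking are descriptions with no test.

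The letters GAGGAAGT, a form of the motif bound by PU.1, were searched on either strand of the same promoter windows, without chromosome 18. They stood in 25 of 272 genes lower in TR9 (9.19%) and in 20 of 536 genes higher (3.73%). Of the 12289 tested genes with a window, 3.72% held them. Binding was not measured. Promoters rich in CpG were 64.8% of the tested genes, 58.8% of those higher in TR9, 42.6% of those lower and 10 of 22 (45.5%) of the genes on in TR9 alone.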
